A study of Brassica oleracea var. italica with 2 samples.

Results

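The genes described here are 9 plant U-box ubiquitin ligases: PUB15, PUB19, PUB22, PUB23, PUB24, PUB25, PUB26, PUB43 and PUB49. They were chosen by name, as the probe sets whose annotated gene is exactly 1 of these symbols and no other gene. Each symbol matched 1 probe set, which gave 9 of the 22810 probe sets on the array, and 0 further probe sets listed any of them together with another gene. Signals came from 2 Arabidopsis oligonucleotide arrays, each hybridised with labelled RNA from whole 11-day-old broccoli seedlings (Brassica oleracea var. italica, cultivar Elegance). The vector sample carried the empty plasmid pCAMBIA1380 in a wild type background. The antisense sample carried 35S::antisenseBoEMF2.1 in the same background, in which the 35S promoter, active in most plant tissues, drives an antisense copy of a broccoli relative of the Polycomb gene EMF2. The sample's title and source name say antisense and its genotype entry leaves that word out. Both samples had grown at 21 °C under a long day of 16 h light and 8 h dark, on plates of 0.8% agar and reduced-strength MS medium with 1.5% sucrose. How many transgenic lines or seedlings were pooled is not given in the sources used here. With a single sample in each group there is no replicate error and no test, and every difference given is one between 2 arrays.

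Ubiquitin is passed from an activating enzyme (E1) to a conjugating enzyme (E2) and then to a target protein with the help of a ligase (E3). The U-box is a fold related to the RING finger that binds the E2, and in many plant U-box proteins it is followed by armadillo repeats that bind the target. In Arabidopsis, PUB22, PUB23 and PUB24 act together as negative regulators of the immune response to microbial patterns, and PUB22 and PUB23 also act in the drought response. PUB19 is a negative regulator of abscisic acid and drought responses. PUB25 and PUB26 act on the immune kinase BIK1 and on the cold-response repressor MYB15. PUB49 differs in architecture, with its U-box joined to a cyclophilin-type domain. No role is given here for PUB15 and PUB43. These roles come from Arabidopsis. No sequences of the probes or of the broccoli genes were used here.

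PUB23 and PUB19 had the lowest ratios of the antisense over the vector array. PUB23 was 2.04-fold lower in the antisense sample and PUB19 at least 2.65-fold lower. PUB22 was 1.33-fold lower and PUB24 was nearly equal on both arrays. PUB49 alone among the genes that could be measured was higher in the antisense sample, by 1.47-fold. PUB15, PUB25, PUB26 and PUB43 lay below the median of both arrays and were given no ratio. A gene was taken as measured when its MAS5 signal, a linear intensity, reached the array's median over 22746 probe sets other than array controls. This floor was 317.6 for the vector and 302.7 for the antisense sample. Where 1 array was below its floor, the floor replaced the signal and the ratio is a bound, written "at least". Because broccoli RNA was hybridised to Arabidopsis probes, a dim signal can reflect sequence differences as well as a low transcript level, and only ratios of 1 probe set between arrays were compared. In whole seedlings, less RNA per cell and fewer cells of an expressing type cannot be told apart.

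**Figure D1:**
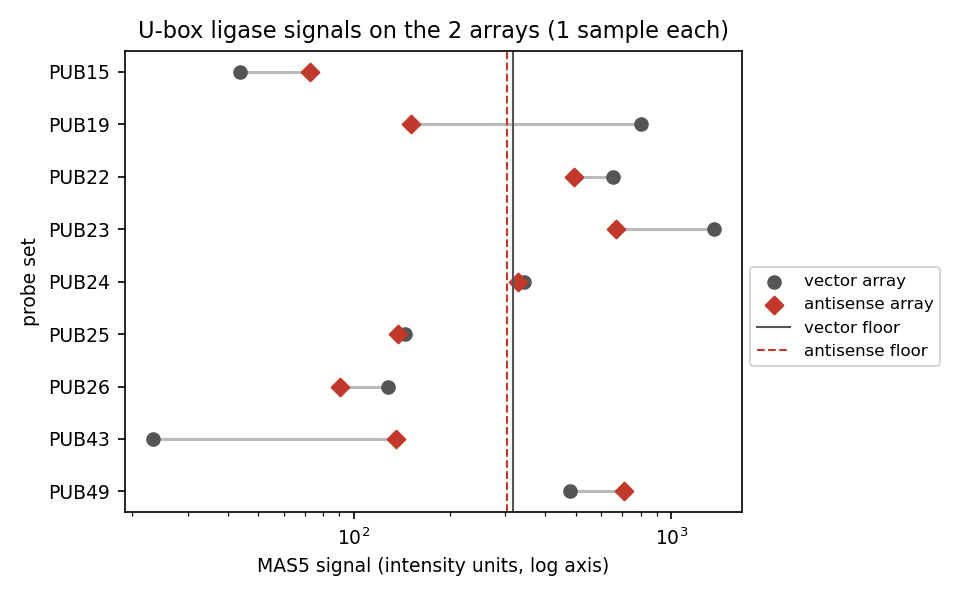
MAS5 signal (horizontal log axis, intensity units) of the 9 U-box ligase probe sets, with a grey circle for the vector array and a red diamond for the antisense array, 1 sample each. The vertical lines are the floors of 317.6 (vector) and 302.7 (antisense). PUB19 crosses its floor, PUB22, PUB23, PUB24 and PUB49 stay above it, and the remaining 4 lie below it on both arrays; horizontal positions of different genes are not comparable as transcript levels.

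Within the immune group, PUB23 (NCBI gene number 818166 in the annotation) gave 1359.5 units of signal with vector RNA and 667.3 with antisense RNA. Its log2 ratio was -1.03, and both signals were well clear of the floor, at 4.28 times the vector floor and 2.20 times the antisense floor. Of the 13362 probe sets measured on at least 1 array, 3.75% had a ratio as low or lower. PUB22 (824410) had signals of 655.6 and 494.4, a log2 ratio of -0.41, and 23.4% of measured probe sets were as low or lower. PUB24 (820357) had signals of 342.1 and 329.5, a log2 ratio of -0.05. The PUB24 signals were 1.08 and 1.09 times their floors, so of the 4 genes above both floors it lay closest to them, and its ratio turned positive under quantile and loess normalization (0.02 and 0.01).

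The spread of a ratio within these arrays was estimated from 31 gene names with 2 probe sets each above both floors. It gave an SD of 0.44 for a single log2 ratio and 0.62 for the difference between 2 ratios. This covers probe noise, and not variation between seedlings. PUB23 lay 0.62 below PUB22 on the log2 scale, and in 7 of the 31 gene names the probe sets of the same gene differed by at least as much. PUB22 and PUB24 differed by 0.35, which 14 of the 31 reached. PUB23 and PUB24 differed by 0.97, which 3 of the 31 reached. The neighbours in the order PUB23, PUB22, PUB24, from lowest to highest ratio, were thus separated by no more than about 1 SD of such differences. The comparison of these pairs with the probe-set spread was chosen after their values were seen.

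PUB19 (gene number 842314) had a signal of 802.3 in the vector sample and 151 in the antisense sample. The vector signal was 2.53 times its floor and the antisense signal 0.499 times its floor, so the log2 ratio of -1.41 is a bound. Taken without a floor, the same 2 signals gave -2.41, a 5.31-fold difference. PUB19 was 1 of 5 genes above the vector floor, and the single one of these that was below the antisense floor. Among all probe sets above the vector floor, 17.5% were below the antisense floor, so a crossing of the floor by itself was common. With the floors raised to the 75th percentile of each array the bound shrank to -0.37, since the floor then replaced more of the difference.

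PUB49 (gene number 836889), the cyclophilin-type U-box protein, had signals of 479.7 and 706.3, and a log2 ratio of 0.56. Of measured probe sets, 13.2% were as high or higher. It went in the opposite direction to PUB23, at a distance of 1.58 on the log2 scale, a difference that 1 of the 31 gene names with 2 probe sets reached. The pair was taken after its values were seen, as the lowest and highest of the 4 genes above both floors. Extremes picked in this way lie further apart than an unpicked pair, so the 31 names are not a like reference. The PUB49 ratio stayed above 0 under every normalization and floor tried, between 0.15 and 0.60. The 0.15 is a bound at the 75th percentile floor, which PUB49 passed on the antisense array alone. Its sign there came with the filter.

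**Figure D2:**
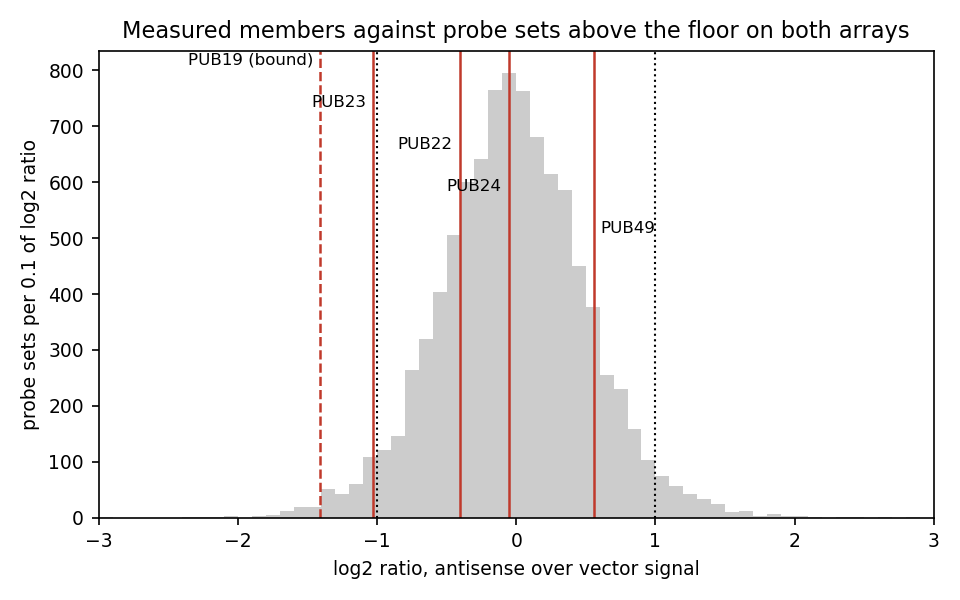
Histogram of log2 ratios (antisense over vector signal) of the 9390 probe sets that passed both floors, in steps of 0.1, with red lines at the measured U-box ligase genes and dotted lines at 2-fold. PUB24 at -0.05 sits near the peak, PUB22 at -0.41 and PUB49 at 0.56 lie on its flanks, PUB23 at -1.03 is just past the 2-fold line, and the dashed PUB19 line at -1.41 marks a bound.

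The genes below both floors were PUB25, PUB26, PUB15 and PUB43, 4 of 9, where 41.3% of all probe sets were below both floors. The paralogs PUB25 (gene number 821472) and PUB26 (841401) had signals of 144.3 and 137.7, and of 128.3 and 90.3, on the vector and antisense arrays. Both were thus lower by their own signals, by log2 differences of -0.07 and -0.51 if no floor is set. PUB15 (834240) had signals of 43.6 and 72.8. PUB43 (843971) had the widest spread of the dim genes, at 23.2 for vector and 135.3 for antisense RNA, a log2 difference of 2.54 if no floor is set. Both of its signals were far under their floors, at 0.073 and 0.447 times the floor. Without a floor, 14.2% of all 22746 probe sets were 2-fold or more higher and 16.2% were 2-fold or more lower, against 1 higher (PUB43) and 2 lower (PUB19 and PUB23) of the 9 genes.

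Counted together, 2 of the 5 measured genes (PUB19 and PUB23) were 2-fold or more lower by ratio or bound, beside 4.17% of the 13362 measured probe sets. PUB19 was measured through the vector array alone, where it was high, so its lower direction came with the filter. Of the 4 genes above both floors, PUB23 alone was 2-fold or more lower. The vector signals of PUB24 and PUB49 (342.1 and 479.7) were too near the antisense floor of 302.7 for such a call. All 9 genes were chosen with earlier results of these data known, and the count was not tested against the share. None of the 5 was 2-fold or more higher, beside 3.43%. By their own signals 4 of the 5 measured genes, PUB19 among them, were lower and 1 was higher, beside 51.5% lower among all measured probe sets. Over all 9 genes 6 were lower and 3 higher, beside 52.1% lower among all 22746 probe sets. The median log2 ratio of the 5 measured genes was -0.41, and that of all measured probe sets was -0.04. Over the 4 genes above both floors, without PUB19, which passed through the vector array alone, the median was -0.23, and over all 9 genes with no floor it was -0.07. The 5 values ranged from the PUB19 bound of -1.41 to PUB49 at 0.56. Scaling the arrays to the 18 hybridization controls lowered every ratio by 0.19 and moved the median of all measured probe sets to -0.23 and that of the 5 genes to -0.60.

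**Figure D3:**
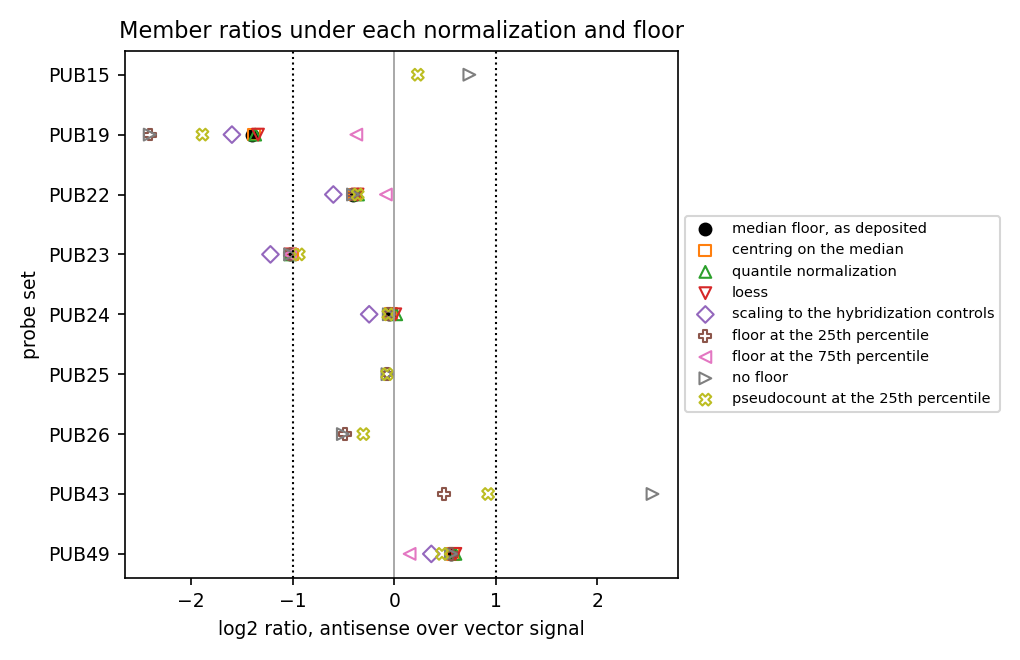
Log2 ratio (horizontal axis, antisense over vector signal) of each of the 9 probe sets under the setting used throughout (filled circle) and under 8 other normalizations or floors (open symbols), with dotted lines at 2-fold. PUB23 stays between -1.22 and -0.94, PUB19 runs from -2.41 to -0.37 with the choice of floor, and PUB15, PUB25, PUB26 and PUB43 appear with a lower floor, no floor or a pseudocount (PUB15 with the last 2 of these).

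PUB19, PUB22 and PUB23 were below 0 under all 9 settings. For PUB19 that sign came with the filter wherever its value was a bound, as at the median and 75th percentile floors. The PUB22 value at the 75th percentile floor (-0.08) was likewise a bound, with its sign set by the filter. PUB23, with both signals above every floor tried, moved little, and it came under 2-fold with a pseudocount at the 25th percentile, at 1.92-fold lower. PUB19, with its antisense signal under the median, took a value that depended on what replaced that signal.

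Other proteins of the U-box class named in the annotation were MAC3A and MAC3B, relatives of the yeast splicing factor Prp19 that belong to a spliceosome-associated complex. MAC3B had signals of 2060.7 (vector) and 894.4 (antisense), 2.30-fold lower, and was past 2-fold under centring, quantile, loess and hybridization-control scaling. MAC3A had signals of 445.2 and 434.6, a log2 ratio of -0.03, which turned positive under quantile and loess normalization (both 0.03).

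The steps before the ligase gave other values. The E1 gene UBA1A had signals of 1065.2 and 991.9, a log2 ratio of -0.10. Of 12 named E2 genes, 10 were measured, with ratios from 0.01 to 0.84 and a median of 0.32. Of these, 0 were 2-fold or more either way, beside 3.43% higher and 4.17% lower over all measured probe sets. For UBC16, UBC18, UBC22 and UBC32 no signal was far enough above the floors for a call in either direction. UBC27 stood highest, at 1729.7 and 3095.5. All 10 had ratios above 0 as deposited, where 51.5% of all measured probe sets were lower by signal. UBC16 (signals of 102.6 for vector and 550 for antisense) and UBC32 (282.7 and 359.7) were above the floor on the antisense array alone. Their values are bounds, and their sign came with the filter. Ratios were above 0 for 9 with quantile or loess normalization. With hybridization-control scaling 6 were above 0, and the E2 median was 0.13. The median of the E2 genes was above that of the U-box genes as deposited, and whether the groups differ was not tested.

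RING-type ligases, the other large class of single-chain E3 enzymes, were thinly covered. Of 5 named, 3 were measured. XERICO, a RING-H2 protein that promotes abscisic acid accumulation in Arabidopsis, had signals of 337.7 and 890.3, 2.64-fold higher in the antisense sample. ATL5 had signals of 505.7 and 48.6, a bound of -0.74, and RHF1A stood at 0.31. XERICO and PUB19, both with roles in abscisic acid responses, were thus past 2-fold in opposite directions, and each rests on 1 signal close to or below the floor. These genes were set side by side after their values were seen, and no list of abscisic acid genes was compared.

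Few known partners and targets of these ligases were named. RPN12a, a proteasome lid subunit that Arabidopsis PUB22 and PUB23 ubiquitinate, had signals of 3008.2 and 3124.1, a log2 ratio of 0.05. That ratio was negative under quantile, loess and hybridization-control scaling (-0.05, -0.02 and -0.14). BIK1, a cytoplasmic kinase of immune receptors and a target of PUB25 and PUB26, had signals of 307.4 and 400.8, a bound of 0.34. In the list of pattern-triggered immunity genes, 4 of 6 were measured and 0 were 2-fold or more either way. Over all measured probe sets, 4.17% were 2-fold or more lower and 3.43% higher. The highest vector signal of the 4 was 468.7 (WRKY22), too near the floor for a 2-fold lower value. The highest antisense signal of the 4, 471 (also WRKY22), was likewise too near the floor for a 2-fold higher value. The absence of calls in either direction was thus fixed by the floor. WRKY22 alone was above both floors. WRKY22, a transcription factor of that response, had signals of 468.7 and 471. WRKY53 had a bound of 0.21, and PHOS32, a protein phosphorylated after microbial elicitation, a bound of -0.14 from signals of 334.7 and 36.3. The immune receptor EFR and the lipase-like SAG101 were below both floors.

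**Figure D4:**
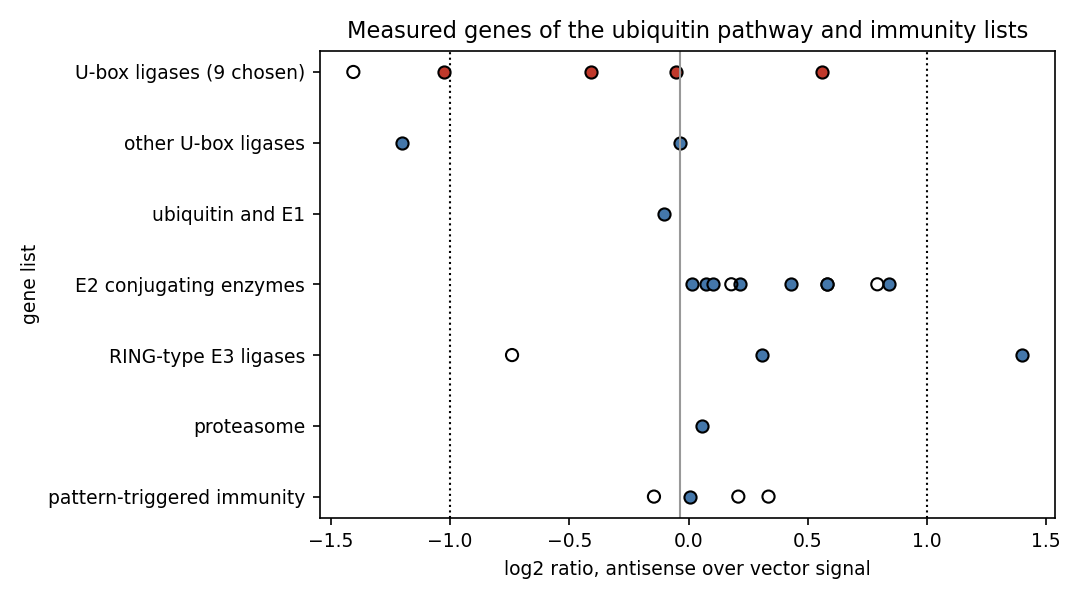
Log2 ratios (horizontal axis, antisense over vector signal) of the measured genes of each list, 1 symbol per gene, filled where both arrays were above the floor and open where the value is a bound; dotted lines mark 2-fold and the grey line the median of all measured probe sets, -0.04. The 10 measured E2 genes lie at or above 0.01, and the 5 measured U-box genes spread from -1.41 to 0.56.

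The 2 samples were labelled as whole seedlings, and genes of shoot and root could both be seen. The shoot genes RCA and LHCB4.1 stood at 0.64 and -0.05, and the root genes EXPA7, EXPA18 and PYK10 at 1.63, 0.80 and -0.44. Of the 5 marker genes measured, 3 were thus higher and 2 lower in the antisense sample, and their part in the U-box values was not tested. No probe set is named for EMF2, so the level of the targeted gene was not analysed here.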

How the data were processed

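The authors deposited intensity values on a linear scale, a signal for each probe set computed with MAS5 per the submitters' processing notes (version not given in the sources used here). Means trimmed by 2% at both tails were 500.035 (vector) and 500.036 (antisense), so the deposited values had been scaled to a common trimmed mean. That equality was set by the scaling and does not show that the arrays are otherwise comparable. The median log2 ratio of the hybridization controls was 0.19. No detection call or scanner file was analysed here, and the number of arrays limits the precision. Genes were named from 13513 probe sets with 1 gene in the platform annotation. Values below each array's median were raised to it before log2 of antisense over vector was taken. No p-value was computed, as each group is a single sample. The members, gene lists and thresholds were chosen with earlier results of these data known. All 9 U-box genes are named. For a further list the rule was to name genes past 2-fold, or else at most 3 with the widest ratios above both floors. RHF1A, WRKY53, PHOS32, EFR, SAG101, ATL5, BIK1, MAC3A, UBC16, UBC18, UBC22, UBC32 and the marker genes outside that rule were added after their values were seen. Lists were matched by symbol; PAC was left out of the proteasome list, as its gene number places it at another gene. The procedure was tested on simulated data. The planted shifts were larger than most differences reported here, in probe sets brighter than most of the 9 genes. That test therefore says little about dim genes, bounds or smaller differences. Alternatives were centring, quantile normalization, loess (span 0.4), hybridization-control scaling, other floors, a pseudocount and thresholds of 1.5-fold and 3-fold. Python 3.11.15 was used with numpy 2.4.6, pandas 2.3.3, statsmodels 0.14.6 and matplotlib 3.10.9.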

Additional observations from a re-analysis of the deposited data

How the results depend on the processing

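No paired analysis was possible because there is a single sample in each group; for the same reason leaving out a replicate was not run. Each gene has 1 probe set, so the choice among probe sets changed nothing. The number of U-box genes measured, 5, became 8 under a 25th percentile floor, 9 with no floor or with a pseudocount, and 4 under a 75th percentile floor, by construction. Their median log2 ratio of -0.41 became -0.24 with the 25th percentile floor, -0.07 with no floor or a pseudocount and -0.23 with the 75th. The 2 genes that were 2-fold or more lower became 1 with the floor at the 75th percentile (PUB23 remained), 1 with a pseudocount (PUB19 remained) and 0 at 3-fold. The count of 2-fold higher genes went from 0 to 1 (PUB43) with no floor. The PUB19 ratio of -1.41 ranged from -2.41 to -0.37 with the floor. No called ratio changed sign, though for PUB19 the sign was set by the filter wherever its value was a bound. Over all measured probe sets, 458 higher and 557 lower became 247 and 998 with hybridization-control scaling, so that split depends on the scaling. Lowering the floor to the 25th percentile gave 2092 higher and 2435 lower, raising it to the 75th gave 167 and 158, and dropping it gave 3241 and 3691. A pseudocount gave 1463 and 1879, a 1.5-fold threshold 1620 and 1946, and a 3-fold threshold 70 and 67. Signals below the median of an array limit what can be said of PUB15, PUB25, PUB26 and PUB43.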
